A study of Mus musculus with 78 samples.

Results

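Soleus muscle of 28-month-old male C57Bl/6 mice fed calcium alpha-ketoglutarate (CaAKG) was compared with soleus of control males of the same age and batch. The comparison holds 22 of the 78 libraries of the series: 12 from males given 2% CaAKG in the feed and 10 from males on the control feed, all labelled batch 2. The members were chosen by the treatment, age, sex and batch in their labels, with the label M28 read as 28 months. The mice of this batch arrived at 17 months and were acclimatised for 3 months before they were randomised to control feed or a compound. Both groups carry the same genotype and had their feed without restriction, and the labels and design text do not state how long the treatment lasted. The other libraries of the series cover control mice of both sexes from 6 to 28 months of age and entered the fits for the estimate of spread. The comparison was made across all genes and again across 19 libraries, without CaAKG replicates 6 and 7, which hold marrow transcripts, and replicate 8, which holds skin transcripts.

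Alpha-ketoglutarate is made in the tricarboxylic acid (TCA) cycle by isocitrate dehydrogenases and used there by the oxoglutarate dehydrogenase complex. It also exchanges amino groups with glutamate through transaminases and is the co-substrate of a large family of dioxygenases that hydroxylate collagen and hypoxia-inducible factor (HIF) and demethylate DNA and histones. The soleus is a postural muscle of slow and fast oxidative fibres, which loses mass and strength in old age.

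The 22 libraries held 30.003 to 70.481 M counts each (M stands for 1e+06), and the mitochondrial genome took 14.8% to 22.3% of them. All of them had the expression of males, with Xist at no more than 0.123 CPM (counts scaled to a library of 1e+06) and Ddx3y between 62.4 and 108 CPM. Summed markers of myofibres ran from 69823 to 93128 CPM in CaAKG libraries, against 76890 to 90849 CPM in control libraries. Skeletal muscle was thus present in every library, though this sum does not tell soleus from other muscles. Transcripts of neighbouring tissues stood apart in single libraries. The 16 neutrophil markers summed to 993 CPM in CaAKG replicate 7 and 252 CPM in CaAKG replicate 6, against 25.0 CPM or less in the other CaAKG libraries and 5.91 CPM or less in the controls. The 13 bone markers, a list added after the data were seen, summed to 135, 41.3 and 30.6 CPM in CaAKG replicates 7, 6 and 8, against 14.1 CPM or less in the other CaAKG libraries and 12.1 CPM or less in controls. The 14 keratinocyte markers reached 7585 CPM in CaAKG replicate 8 and 1152 CPM in CaAKG replicate 10, against 808 CPM in control replicate 4 and at most 19.7 CPM in the other controls. Schwann cell markers reached 2610 CPM in CaAKG replicate 11, against 808 CPM in control replicate 1, and markers of sperm cells, a list also added after the data were seen, reached 84.8 CPM in control replicate 4 against no more than 0.262 CPM in any CaAKG library. Tendon markers reached 792 and 595 CPM in control replicates 5 and 6, against 476 CPM or less in any CaAKG library. In bulk tissue, fewer cells of a type and less RNA per cell cannot be told apart.

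**Figure D1:**
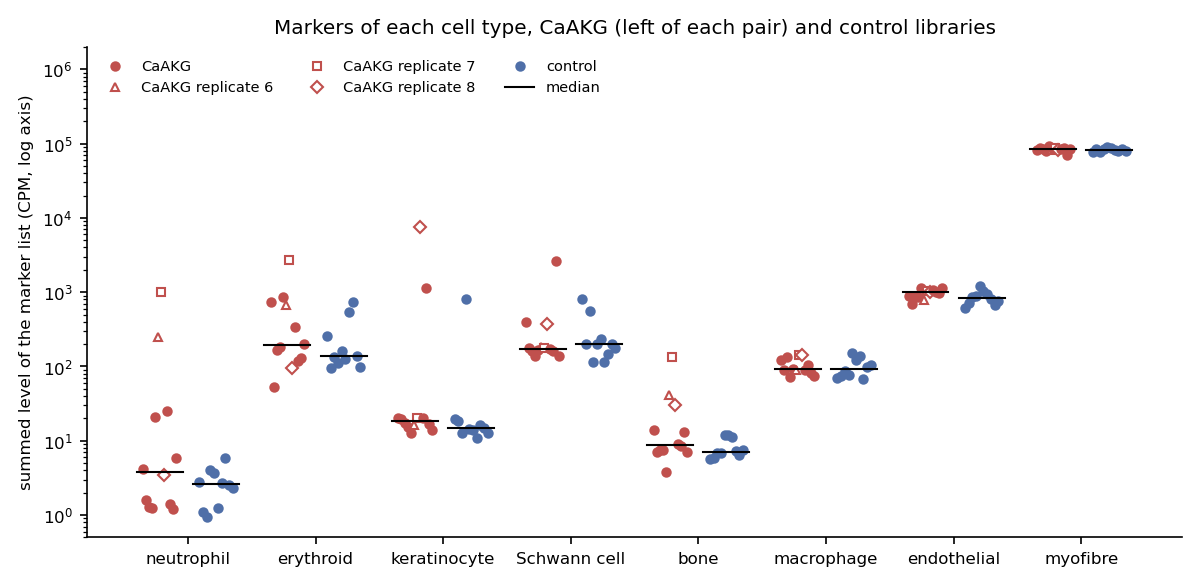
Summed level of 8 marker lists in each library (CPM, log axis), with CaAKG libraries left of control libraries in each pair, a line at each group's median and open symbols for CaAKG replicates 6, 7 and 8. Neutrophil markers reach 993 CPM and keratinocyte markers 7585 CPM in single CaAKG libraries, while myofibre markers lie between 69823 and 93128 CPM in CaAKG libraries and between 76890 and 90849 CPM in controls.

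With all 22 libraries, 12 genes were called higher in the CaAKG group, 10 of them on the neutrophil or erythroid marker lists, and nearly all of their counts came from 2 of the 12 CaAKG libraries. Of 18218 genes tested, 12 were higher in CaAKG muscle (0.0659% of genes) and 0 were lower (0% of genes) at an adjusted p under 0.05 in edgeR's quasi-likelihood test. They were Elane, Ctsg, Ltf, Ngp, Cd177, Lcn2, S100a8 and S100a9, which encode granule and cytosolic proteins of neutrophils, Slc4a1 and Epb42, which encode proteins of the red cell membrane, Ctse, an aspartic protease, and 1 gene with no symbol in the annotation. The list of 16 neutrophil markers held 8 of the 12, and the erythroid list 2. Between 91.0% and 98.6% of the CaAKG group's counts of each of these genes came from CaAKG replicates 6 and 7. Of genes tested, 6.67% had an unadjusted p under 0.05.

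S100a9 (chr3:90692632-90695721, mm10, minus strand) and S100a8 (chr3:90668978-90670035, plus strand), which encode the subunits of calprotectin of neutrophils, were above 0 in every library. S100a9 stood at 56.9 and 149.5 CPM in CaAKG replicates 6 and 7, at 0.0484 to 8.39 CPM in the other CaAKG libraries, and at 0.0893 to 1.18 CPM in control libraries. The log2 fold change over 22 libraries was 4.93 ± 1.04 (SE, edgeR adjusted p = 0.0319). S100a8 stood at 44.8 and 133 CPM in the same 2 libraries, at 0.129 to 5.34 CPM in the other CaAKG libraries and at 0.0893 to 1.6 CPM in control libraries. Apart from CaAKG replicates 6 and 7, the 2 groups overlapped for both genes. Elane (chr10:79886247-79888215, plus strand), which encodes neutrophil elastase, had 889 of its 906 CaAKG counts in replicates 6 and 7, while 7 CaAKG libraries and 9 control libraries held 0 counts and the controls together held 1 count. Ctsg, which encodes cathepsin G, likewise had 345 of 355 CaAKG counts in the 2 libraries and 1 count over all controls, so no fold is given for either gene. Ngp, a granule protein of neutrophil precursors, stood at 49.6 and 178 CPM in CaAKG replicates 6 and 7, at 0 to 3.55 CPM in the other CaAKG libraries and at 0 to 0.496 CPM in control libraries. Slc4a1, the anion exchanger of red cells, stood at 6.53 and 76.3 CPM in those 2 CaAKG libraries, at 0 to 1.09 CPM in the other CaAKG libraries and at 0 to 0.48 CPM in control libraries.

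**Figure D2:**
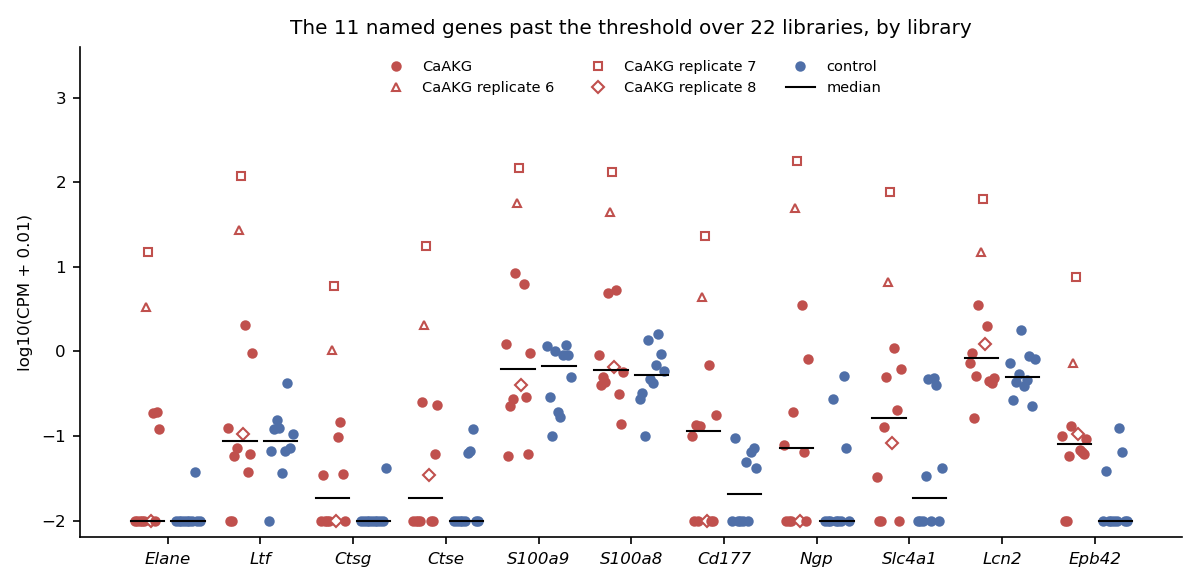
Level of the 11 named genes past the threshold over 22 libraries, as log10(CPM + 0.01) on the vertical axis, CaAKG libraries left of control libraries, with a line at each group's median. CaAKG replicates 7 (open squares) and 6 (open triangles) are the highest libraries for each of the 11 genes, and the remaining CaAKG libraries overlap the controls.

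Cell cycle genes lay mostly above 0 with the 3 libraries and not without them. Over 22 libraries 24 of 25 lay above 0, with a median log2 fold change of 0.59 against 0.01 over all genes, and 11 had an unadjusted p under 0.05, against 53.5% of all genes above 0 and 6.67% of them below that p. In edgeR with the filter 0 passed the adjusted threshold, while DESeq2 called Cdk1 and Mki67 (adjusted p = 0.013 and 0.00127) and edgeR without a filter called Mki67 (adjusted p = 0.0352). Mki67, a protein of dividing cells, had 45.7 CPM in CaAKG replicate 7, 5.69 CPM in CaAKG replicate 8 and 3.79 CPM in CaAKG replicate 6, at most 1.07 CPM in the other CaAKG libraries and at most 1.53 CPM in control libraries. Without the 3 libraries 13 of the 25 genes lay above 0, with a median of 0.05 and 0 at an unadjusted p under 0.05. The cell cycle median lay between -0.05 (without control replicate 1) and 0.07 (without CaAKG replicate 11) when single libraries were left out.

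The 12 calls changed with the libraries in the fit. Leaving out CaAKG replicate 6 or replicate 7 alone left 0 calls, and leaving out both left 0. Leaving out any single control other than replicate 4 also left 0, while leaving out control replicate 4, the control with skin and sperm transcripts, gave 139 higher and 1 lower gene. Without control replicate 8, S100a9 and S100a8 were at 5.10 and 4.84 on the log2 scale, both at an edgeR adjusted p of 0.0508, against 4.93 and 4.59 with all 22 libraries. Without CaAKG replicate 7 they were at 3.48 and 3.03 (edgeR adjusted p = 0.613 and 0.671). A fit of the 2 compared groups alone called 0 genes, with 1223 at an unadjusted p under 0.05. Its filter kept only S100a8, S100a9 and Lcn2 of the named genes among the 12, at edgeR p = 0.000593, 0.000585 and 0.00106. The other named genes were not tested there, so the 0 does not cover them. limma-voom with quality weights called 1 higher and 8 lower genes, of which the higher was Mid1ip1 and the lower were Prox1, Ptpn4, Asph, Cavin4, Clock, Herc3, Leo1 and Zfp462, and DESeq2 called 29 higher and 0 lower.

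Across the 19 remaining libraries, 9 CaAKG and 10 control, no gene of the soleus passed the threshold in edgeR's quasi-likelihood test. Of 18024 genes tested, 0 were higher and 0 were lower at an adjusted p under 0.05 (0% in either direction), and every adjusted p rounded to 1. At an unadjusted p under 0.05 there were 509 genes (2.82%), 334 of them higher (1.85%) and 175 lower (0.971%) in CaAKG muscle. An edgeR fit of the compared groups alone, with the spread taken from these 19 libraries, called 0 genes, with 875 at an unadjusted p under 0.05. limma-voom with quality weights called 0 genes, with 1310 at an unadjusted p under 0.05, and DESeq2 called 3. The 3 were Xist and Pgk1-rs7, which reached at most 0.123 and 6.56 CPM in CaAKG libraries against 0 CPM in controls, and Akr1cl, at 0 CPM in CaAKG libraries against at most 0.09999 CPM in controls. The median log2 fold change over all genes was 0.00, and 50.4% of genes lay above 0. Single-gene values below are therefore levels in CPM with a log2 fold change ± SE and an unadjusted p from edgeR, which orders genes and calls none. All of them, and the counts of genes at an unadjusted p under 0.05, are over the 19 libraries unless 22 are named.

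**Figure D3:**
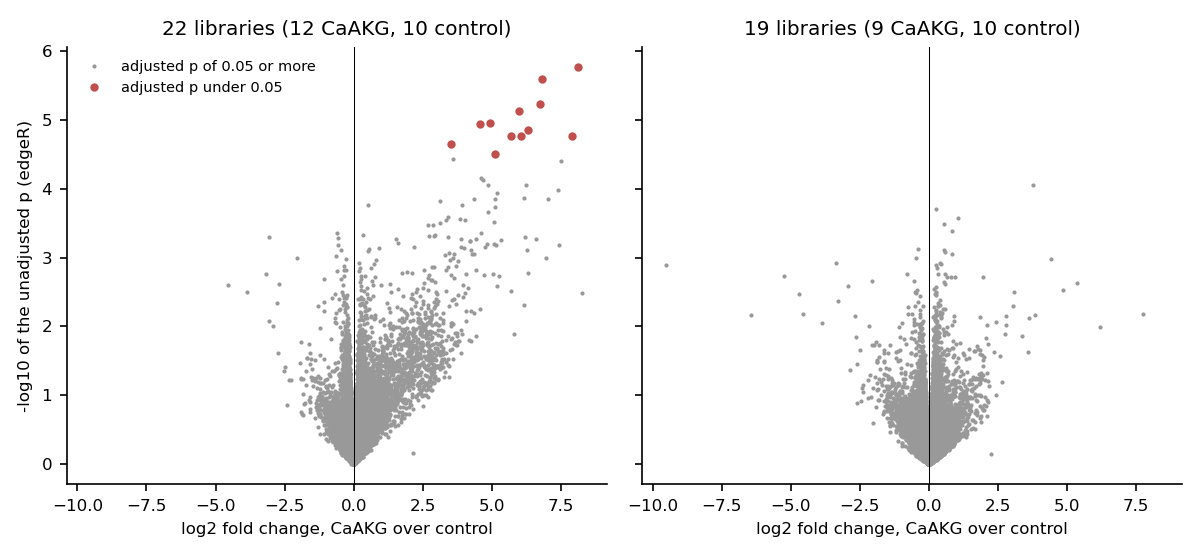
Log2 fold change of CaAKG over control (horizontal axis) against -log10 of the unadjusted edgeR p (vertical axis) for each gene tested, over 22 libraries (left) and 19 libraries (right). The 12 genes with adjusted p under 0.05 (red) lie at the upper right of the left panel, and the right panel holds 0 such genes.

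The genes of lowest p over 19 libraries mostly had overlapping groups. Pef1 (chr4:130102558-130128135, plus strand), a calcium-binding adaptor of a ubiquitin ligase, ran from 25.1 to 36 CPM in CaAKG libraries (median 27.5), against 21.4 to 26.9 CPM in control libraries (median 23.8). The CaAKG libraries of Pef1 lay above the control median in 9 of 9 cases and above all controls in 5. The log2 fold change was 0.26 ± 0.07 (SE, edgeR p = 0.000199). Cyp2u1 (chr3:131288441-131303227, minus strand), a cytochrome P450 that hydroxylates fatty acids, ran from 3.41 to 4.87 CPM in CaAKG libraries (median 4.15), against 5.03 to 7.07 CPM in control libraries (median 5.69). It was the 1 gene of 18024 (0.00555%) with every CaAKG library below every control, and 0 genes (0%) had every CaAKG library above every control. Cyp2u1 differed by -0.46 ± 0.13 (SE, edgeR p = 0.00101) on the log2 scale. Zcchc7, a factor of nuclear RNA surveillance, ran from 8.83 to 15.2 CPM in CaAKG libraries (median 12), against 13.1 to 22.3 CPM in control libraries (median 14.3), and 6 of the 9 CaAKG libraries lay below all controls.

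Spsb1, the substrate adaptor of a ubiquitin ligase, ran from 11.8 to 23.4 CPM in CaAKG libraries (median 15.1), against 8.55 to 13.5 CPM in control libraries (median 10.5). For Spsb1 7 of the 9 CaAKG libraries exceeded all controls, and 9 exceeded the control median. The log2 fold change was 0.59 ± 0.17 (SE, edgeR p = 0.000824). Tmco6, Znhit2 and Prr15 were higher by 0.53, 0.55 and 0.83 on the log2 scale, with p = 0.000321, 0.000784 and 0.000883 in edgeR and CaAKG medians of 4.03, 7.23 and 2.16 CPM against 3.06, 5.46 and 1.29 CPM in controls. In each of the 3 the groups overlapped. Ptgds, a prostaglandin D synthase, had the lowest edgeR p (8.93e-05), and ran from 0 to 9.23 CPM in CaAKG libraries (median 0.0877), against 0 to 0.222 CPM in control libraries (median 0.0761). The highest library was CaAKG replicate 1. Leaving out CaAKG replicate 1 gave an edgeR p of 0.24.

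**Figure D4:**
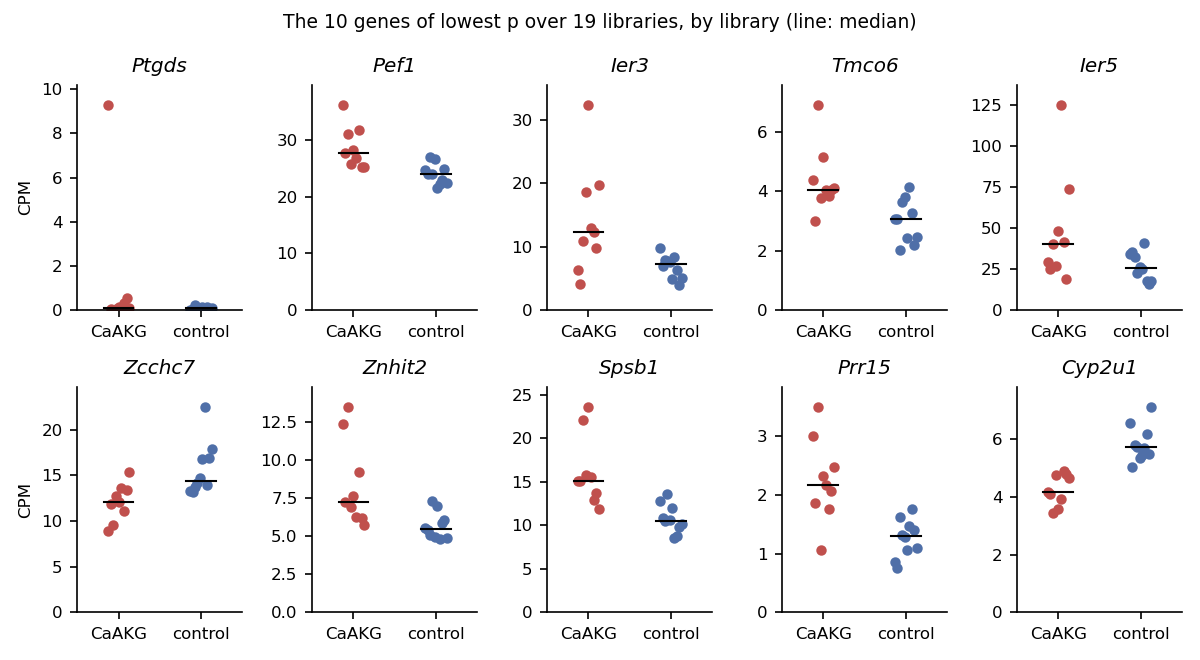
Level (CPM, linear axis from 0) of the 10 genes of lowest p over 19 libraries, with the 9 CaAKG libraries left of the 10 control libraries and a line at each median. Cyp2u1 is the 1 gene whose groups do not overlap, and for Ptgds a single CaAKG library lies far above all others.

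In edgeR no gene of alpha-ketoglutarate exchange, the TCA cycle or the dioxygenases passed the adjusted threshold. Of 22 genes of alpha-ketoglutarate and glutamate exchange and transport, 15 lay above 0, with a median log2 fold change of 0.04, and 2 were at an unadjusted p under 0.05, both higher. The exchange list median lay between 0.03 (without CaAKG replicate 11) and 0.08 (without control replicate 3) when single libraries were left out. Glul, the glutamine synthetase, ran from 139 to 511 CPM in CaAKG libraries (median 230.0), against 128 to 228 CPM in control libraries (median 169). The CaAKG libraries of Glul lay above the control median in 7 of 9 cases and above all controls in 5. Glul differed by 0.57 ± 0.20 (SE, edgeR p = 0.00555) on the log2 scale, and leaving out CaAKG replicate 5 gave 0.37 with p = 0.0571. Bcat2, which passes the amino group of branched-chain amino acids to alpha-ketoglutarate, ran from 44.9 to 81 CPM in CaAKG libraries (median 64.3), against 46.4 to 62.7 CPM in control libraries (median 56.8), a log2 fold change of 0.22 ± 0.10 (SE, edgeR p = 0.0282). Glud1, glutamate dehydrogenase, averaged 149.7 ± 10.9 CPM in CaAKG libraries (SD, n = 9) and 144 ± 6.53 CPM in control libraries (SD, n = 10). The aspartate transaminases Got1 and Got2 differed by 0.00 and 0.00 on the log2 scale, with 95% intervals from -0.20 to 0.20 and from -0.20 to 0.20. The alanine transaminase Gpt2 differed by -0.06 with an interval from -0.43 to 0.31. Slc25a1, the mitochondrial citrate carrier, ran from 2.08 to 17 CPM in CaAKG libraries (median 3.04), against 2.66 to 5.26 CPM in control libraries (median 3.68), and 2 of the 9 CaAKG libraries lay above all controls and 3 below all controls.

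In the TCA cycle itself, 10 of 26 genes lay above 0 with a median of -0.02 and 0 at an unadjusted p under 0.05. The TCA median lay between -0.05 (without CaAKG replicate 4) and 0.01 (without control replicate 9) when single libraries were left out. Idh2 averaged 1761 ± 309 CPM in CaAKG libraries (SD, n = 9) and 1654 ± 231 CPM in control libraries (SD, n = 10). Idh3a, a subunit of the NAD-dependent isocitrate dehydrogenase, averaged 409 ± 56.2 CPM in CaAKG libraries (SD, n = 9) and 433 ± 43.6 CPM in control libraries (SD, n = 10). Idh1, the cytosolic enzyme, averaged 24.4 ± 3.98 CPM in CaAKG libraries (SD, n = 9) and 23 ± 5.42 CPM in control libraries (SD, n = 10). Ogdh, the first subunit of the oxoglutarate dehydrogenase complex, averaged 1029 ± 146 CPM in CaAKG libraries (SD, n = 9) and 1039.5 ± 103 CPM in control libraries (SD, n = 10). The 95% interval of its log2 fold change ran from -0.22 to 0.20, and that of Idh2 from -0.15 to 0.33. The member of lowest p was Pcx, pyruvate carboxylase, at 0.22 ± 0.13 (SE, edgeR p = 0.0962), followed by Dld at -0.10 ± 0.09 (SE, edgeR p = 0.283).

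Of the dioxygenases that use alpha-ketoglutarate, 39 were tested, 20 lay above 0 and their median was 0.01. The dioxygenase median lay between -0.01 (without control replicate 1) and 0.04 (without CaAKG replicate 1) when single libraries were left out. Asph, the aspartyl hydroxylase gene, was the 1 member at an unadjusted p under 0.05 and is also on the calcium-handling list. Counts are per gene, so different transcripts of Asph cannot be told apart, and its value is not that of the hydroxylase alone. Asph ran from 105 to 150.3 CPM in CaAKG libraries (median 114), against 115 to 164 CPM in control libraries (median 150.1). Of the 9 CaAKG libraries 8 lay below the control median and 6 below all controls. Asph differed by -0.27 ± 0.11 (SE, edgeR p = 0.0163) on the log2 scale, and over 22 libraries it was -0.34 with an edgeR p = 0.00153. Over 22 libraries limma-voom with quality weights called it lower (adjusted p = 0.0148). The prolyl hydroxylases that mark HIF for destruction were Egln1 at 0.15 ± 0.10 (SE, edgeR p = 0.153), Egln2 at 0.20 ± 0.10 (SE, edgeR p = 0.0596) and Egln3 at 0.16 ± 0.16 (SE, edgeR p = 0.318), and the asparaginyl hydroxylase Hif1an was at 0.07 ± 0.18 (SE, edgeR p = 0.687). P4ha1, a collagen prolyl hydroxylase, averaged 23.2 ± 3.01 CPM in CaAKG libraries (SD, n = 9) and 23.9 ± 4.34 CPM in control libraries (SD, n = 10). P3h1, another, averaged 7.41 ± 0.846 CPM in CaAKG libraries (SD, n = 9) and 6.34 ± 0.471 CPM in control libraries (SD, n = 10). Among the DNA demethylases, Tet2 averaged 31.3 ± 9.45 CPM in CaAKG libraries (SD, n = 9) and 34.5 ± 7.28 CPM in control libraries (SD, n = 10). Tet3 averaged 16.7 ± 4.41 CPM in CaAKG libraries (SD, n = 9) and 17.6 ± 6.51 CPM in control libraries (SD, n = 10). The third of them, Tet1, was low and ran from 0.215 to 1.97 CPM in CaAKG libraries (median 1.49), against 0.333 to 4.51 CPM in control libraries (median 1.57). The histone demethylase Kdm6b averaged 25.9 ± 5.19 CPM in CaAKG libraries (SD, n = 9) and 29.3 ± 7.51 CPM in control libraries (SD, n = 10). Of 20 HIF targets 12 lay above 0, with a median of 0.04. The HIF target median lay between 0.01 (without CaAKG replicate 11) and 0.05 (without control replicate 7) when single libraries were left out. Vegfa, the growth factor of blood vessels, ran from 148 to 273 CPM in CaAKG libraries (median 181), against 195 to 309.5 CPM in control libraries (median 223), a log2 fold change of -0.33 ± 0.12 (SE, edgeR p = 0.01). Ddit4, an inhibitor of mTOR, differed in the other direction and ran from 8.33 to 44.5 CPM in CaAKG libraries (median 19.1), against 10.0 to 26.7 CPM in control libraries (median 12.1), a log2 fold change of 0.73 ± 0.31 (SE, edgeR p = 0.0219).

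Calcium-handling genes gave 15 of 36 above 0 and a median of -0.04. At an unadjusted p under 0.05, 1 was higher and 1 lower, against 1.85% and 0.971% of all genes. The lower was Asph, which the dioxygenase list also holds. The calcium list median lay between -0.06 (without CaAKG replicate 2) and -0.01 (without CaAKG replicate 5) when single libraries were left out. Sln, the sarcolipin that uncouples the calcium pump, ran from 30.5 to 272 CPM in CaAKG libraries (median 94.2), against 41.5 to 116 CPM in control libraries (median 72.7). For Sln 4 of the 9 CaAKG libraries exceeded all controls, and 6 exceeded the control median. Of the 9 CaAKG libraries 3 lay below the control median and 2 below all controls. On the log2 scale Sln differed by 0.69 ± 0.30 (SE, edgeR p = 0.0254), and without CaAKG replicate 2 it was 0.45 (edgeR p = 0.144). The pumps Atp2a1 and Atp2a2 and the release channel Ryr1 differed by 0.10, 0.08 and 0.11 on the log2 scale, with 95% intervals from -0.27 to 0.47, from -0.33 to 0.48 and from -0.27 to 0.49. Slc8a3, a sodium-calcium exchanger, was at 0.27 ± 0.17 (SE, edgeR p = 0.119).

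Nuclear genes of energy metabolism lay close to 0 as groups, while messenger RNAs of the mitochondrial genome lay mostly below 0. The 55 nuclear subunits of oxidative phosphorylation had a median of -0.02, 25 of them above 0 and 0 at an unadjusted p under 0.05. The subunit median lay between -0.04 (without control replicate 5) and 0.02 (without control replicate 9) when single libraries were left out. Atp5d, of the ATP synthase, averaged 334 ± 54 CPM in CaAKG libraries (SD, n = 9) and 303 ± 22.3 CPM in control libraries (SD, n = 10). Uqcrq, of complex III, averaged 302 ± 64.6 CPM in CaAKG libraries (SD, n = 9) and 265 ± 30.7 CPM in control libraries (SD, n = 10). Cycs, cytochrome c, averaged 478 ± 40.9 CPM in CaAKG libraries (SD, n = 9) and 524 ± 72.5 CPM in control libraries (SD, n = 10). Of the 13 messenger RNAs of the mitochondrial genome 12 lay below 0, with a median of -0.16, and CaAKG libraries ran from -0.61 to 0.10 around the control mean on the log2 scale, against -0.40 to 0.32 in control libraries. Their median lay between -0.204 (without CaAKG replicate 11) and -0.115 (without CaAKG replicate 1) when single libraries were left out, and 0 were at an unadjusted p under 0.05. Over all 22 libraries the mitochondrial genome took 17.5 ± 2.25% of all counts in CaAKG libraries (SD, n = 12) and 19.2 ± 1.77% in control libraries (SD, n = 10). A two-sided permutation test with 100000 resamples gave p = 0.0814 (adjusted p = 0.651 over 8 library measures). mt-Nd4l ran from 51.9 to 676 CPM in CaAKG libraries (median 374), against 166 to 891 CPM in control libraries (median 656), and mt-Nd6 ran from 1524 to 2646 CPM in CaAKG libraries (median 2261), against 1689.5 to 3160.2 CPM in control libraries (median 2480.2). Fatty acid genes had a median of -0.07 (8 of 27 above 0), with Cpt1b, the carnitine transferase of mitochondria, at -0.10 ± 0.09 (SE, edgeR p = 0.304) and Fabp3, a fatty acid binding protein, at -0.19 ± 0.17 (SE, edgeR p = 0.246). The fatty acid median lay between -0.09 (without CaAKG replicate 12) and -0.04 (without CaAKG replicate 1) when single libraries were left out.

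Regulators of mitochondrial content had a median of -0.05, 10 of 24 above 0. The regulator list median lay between -0.08 (without control replicate 7) and -0.01 (without CaAKG replicate 1) when single libraries were left out. Ppargc1a, the coactivator that drives mitochondrial biogenesis, ran from 24.1 to 77.2 CPM in CaAKG libraries (median 46.7), against 34.1 to 138 CPM in control libraries (median 46.9), a log2 fold change of -0.55 ± 0.27 (SE, edgeR p = 0.0447). Of the 9 CaAKG libraries 5 lay below the control median and 2 below all controls. Leaving out control replicate 2 gave an edgeR p of 0.165. Its relative Ppargc1b ran from 4.33 to 9.73 CPM in CaAKG libraries (median 7.81), against 4.73 to 13.8 CPM in control libraries (median 10.3), and all 9 CaAKG libraries lay below the control median. Dnm1l, of mitochondrial fission, was at -0.15 ± 0.08 (SE, edgeR p = 0.058), and Tfb1m, a methyltransferase of the mitochondrial ribosome, at 0.22 ± 0.11 (SE, edgeR p = 0.0456). Branched-chain amino acid breakdown had a median of 0.03, 13 of 21 above 0, with Bckdha at 0.19 ± 0.10 (SE, edgeR p = 0.0589). The branched-chain median lay between 0.02 (without CaAKG replicate 12) and 0.06 (without CaAKG replicate 11) when single libraries were left out. Glycolysis and glycogen genes had a median of -0.02, 9 of 26 above 0, with Ppp1r3c, a glycogen-targeting subunit of a phosphatase, at -0.31 ± 0.26 (SE, edgeR p = 0.248) and Slc2a4, the insulin-responsive glucose transporter, at 0.16 ± 0.11 (SE, edgeR p = 0.123). The glycolysis median lay between -0.05 (without CaAKG replicate 4) and 0.00 (without CaAKG replicate 5) when single libraries were left out.

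Over all 22 libraries the groups overlapped in the shares of all 4 adult myosins. Counts of these 4 heavy chain genes were each divided by the gene's longest transcript (6016 to 6230 bases) before shares were taken. Slow Myh7 took 42.9 ± 7.97% in CaAKG libraries (SD, n = 12) and 44.4 ± 4.31% in control libraries (SD, n = 10, permutation p = 0.612, adjusted p = 0.816). Fast oxidative Myh2 took 37.2 ± 5.65% in CaAKG libraries (SD, n = 12) and 36.8 ± 6.8% in control libraries (SD, n = 10; permutation p = 0.899, adjusted p = 0.936). Myh1 ran from 4.59% to 33.1% of the length-scaled counts in CaAKG libraries, against 7.08% to 20.98% in control libraries (permutation p = 0.224, adjusted p = 0.774). Myh4, of fast glycolytic fibres, ran from 0.0803% to 8.60% in CaAKG libraries, against 0.110% to 17.8% in control libraries (permutation p = 0.387, adjusted p = 0.774). Control replicates 1 and 2 stood at 17.4% and 17.8%, against 4.34% or less in the other controls. Over 19 libraries slow-fibre genes had a median of -0.06 (6 of 18 above 0) and fast-fibre genes a median of -0.06 (5 of 18 above 0). The slow-fibre median lay between -0.12 (without CaAKG replicate 5) and -0.01 (without CaAKG replicate 11) when single libraries were left out. The fast-fibre median lay between -0.09 (without CaAKG replicate 3) and -0.02 (without control replicate 10) when single libraries were left out. Tcap, which caps titin at the Z-disc, was the 1 of 30 sarcomere genes at an unadjusted p under 0.05. It ran from 3138 to 5375 CPM in CaAKG libraries (median 4268), against 2748 to 3674 CPM in control libraries (median 3343), and 7 of the 9 CaAKG libraries lay above all controls. Tcap differed by 0.37 ± 0.14 (SE, edgeR p = 0.0103) on the log2 scale. Des, the desmin of intermediate filaments, ran from 3419.7 to 7034 CPM in CaAKG libraries (median 4307), against 3562 to 4369 CPM in control libraries (median 3853).

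Genes of growth, breakdown and protein quality were mixed. In the list of atrophy and FOXO targets 25 of 30 lay above 0, with a median of 0.20, and 7 were at an unadjusted p under 0.05, all higher, against 1.85% of all genes. The atrophy list median lay between 0.11 (without CaAKG replicate 1) and 0.28 (without control replicate 4) when single libraries were left out. The 7 did not include the muscle ubiquitin ligases Fbxo32 and Trim63. Fbxo32 averaged 351 ± 71.6 CPM in CaAKG libraries (SD, n = 9) and 348 ± 55.1 CPM in control libraries (SD, n = 10). Trim63 averaged 136 ± 27 CPM in CaAKG libraries (SD, n = 9) and 145 ± 48.3 CPM in control libraries (SD, n = 10). Cebpb, a transcription factor of stress and inflammation, had the lowest p of the list and ran from 78.7 to 221 CPM in CaAKG libraries (median 124.4), against 70.1 to 111.1 CPM in control libraries (median 90.2). For Cebpb 7 of the 9 CaAKG libraries exceeded all controls, and 7 exceeded the control median. On the log2 scale Cebpb differed by 0.55 ± 0.17 (SE, edgeR p = 0.00224). Cebpd, its relative, ran from 13 to 57.6 CPM in CaAKG libraries (median 17.2), against 7.54 to 19.7 CPM in control libraries (median 13.8), and the metallothioneins Mt1 and Mt2, which bind zinc, had CaAKG medians of 27.3 and 8.85 CPM against 17.3 and 5.26 CPM in controls. CaAKG replicate 5 was the highest library for Cebpd, Mt1 and Mt2, and without it their p was 0.0813, 0.134 and 0.164 in edgeR. Across the list the library medians ran from -0.06 to 0.40 around the control mean in CaAKG libraries, against -0.20 to 0.16 in control libraries, on the log2 scale.

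Autophagy genes had a median of 0.09 with 24 of 29 above 0, and Map1lc3b, a protein of autophagosomes, and Sqstm1, a cargo receptor, were at 0.22 ± 0.09 (SE, edgeR p = 0.0197) and 0.21 ± 0.10 (SE, edgeR p = 0.0307). Without CaAKG replicate 5 Map1lc3b was at 0.14 (edgeR p = 0.107). The 30 proteasome genes had a median of 0.05 (25 of 30 above 0), with Psmd4 at 0.18 ± 0.08 (SE, edgeR p = 0.0342). The proteasome median lay between 0.03 (without CaAKG replicate 5) and 0.08 (without CaAKG replicate 11) when single libraries were left out. Unfolded protein genes had a median of 0.03 (15 of 25 above 0). The unfolded protein median lay between -0.01 (without CaAKG replicate 5) and 0.07 (without control replicate 1) when single libraries were left out. Herpud1, of endoplasmic reticulum quality control, ran from 69.2 to 109 CPM in CaAKG libraries (median 94.5), against 63.4 to 85.6 CPM in control libraries (median 77.6), and 6 of the 9 CaAKG libraries lay above all controls. Atf3, a stress transcription factor, had 358 CPM in CaAKG replicate 9 and a CaAKG median of 57.8 CPM, against a control median of 35.8 CPM. Its log2 fold change without that library was 0.41 (edgeR p = 0.37), against 0.97 with it. Growth signalling genes had a median of 0.04, with Irs2 at 0.65 ± 0.32 (SE, edgeR p = 0.0438) and Akt1 at 0.17 ± 0.08 (SE, edgeR p = 0.049). Akt1 was at 0.11 without CaAKG replicate 1 (edgeR p = 0.181). The growth signalling median lay between 0.02 (without CaAKG replicate 12) and 0.09 (without CaAKG replicate 1) when single libraries were left out.

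The list of denervation response and neuromuscular junction genes had a median of 0.16, with 24 of 28 above 0, against 50.4% of all genes. It mixes genes of both kinds, so its median is no measure of denervation. The denervation median lay between 0.07 (without CaAKG replicate 2) and 0.20 (without CaAKG replicate 11) when single libraries were left out. Myog, the myogenic factor induced by denervation, ran from 3.52 to 38.6 CPM in CaAKG libraries (median 8.93), against 3.66 to 22.6 CPM in control libraries (median 5.84). The CaAKG libraries of Myog lay above the control median in 7 of 9 cases and above all controls in 3. Myog differed by 0.89 ± 0.37 (SE, edgeR p = 0.0208) on the log2 scale, and leaving out CaAKG replicate 3 gave a p of 0.132. Mymx, a fusogen of myoblasts, was low and ran from 0.0514 to 4.15 CPM in CaAKG libraries (median 0.438), against 0 to 0.63 CPM in control libraries (median 0.0111), a log2 fold change of 3.10 ± 1.01 (SE, edgeR p = 0.00319). CaAKG replicates 1 and 3 held 162 and 135 counts of Mymx, against 2 to 32 in the other CaAKG libraries of the 19 and 0 to 23 in controls. Without CaAKG replicate 3 the edgeR p of Mymx was 0.0145. Mymk, its partner in fusion, ran from 0.0877 to 2.53 CPM in CaAKG libraries (median 0.662), against 0.0444 to 1.01 CPM in control libraries (median 0.146). Ache, the acetylcholinesterase of the synapse, was at 0.18 ± 0.14 (SE, edgeR p = 0.205). Schwann cell markers, which CaAKG replicate 11 and control replicate 1 carried in excess, had a median of 0.69 with 14 of 14 above 0, but without CaAKG replicate 11 their median was -0.40.

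Immediate early genes, which respond within minutes to stimuli of many kinds, were the list with the most members at an unadjusted p under 0.05 over 19 libraries. Of 24 genes 22 lay above 0, with a median log2 fold change of 0.36 against 0.00 over all genes, and 9 were at an unadjusted p under 0.05, all higher, against 1.85% of all genes. No member passed the adjusted threshold in edgeR. Ier3, an early response regulator of survival, ran from 4.05 to 32.2 CPM in CaAKG libraries (median 12.2), against 3.9 to 9.75 CPM in control libraries (median 7.27). The CaAKG libraries of Ier3 lay above the control median in 7 of 9 cases and above all controls in 7. Ier3 differed by 1.04 ± 0.27 (SE, edgeR p = 0.000263) on the log2 scale. Ier5 ran from 18.7 to 124.3 CPM in CaAKG libraries (median 40.2), against 16 to 40.5 CPM in control libraries (median 25.6), a log2 fold change of 0.83 ± 0.22 (SE, edgeR p = 0.000406). Jund, a subunit of the AP-1 transcription factor, ran from 110.2 to 256 CPM in CaAKG libraries (median 139), against 104 to 152 CPM in control libraries (median 117), a log2 fold change of 0.44 ± 0.13 (SE, edgeR p = 0.00123). Dusp1, a phosphatase that ends MAP kinase signalling, was at 0.30 ± 0.12 (SE, edgeR p = 0.0118). Without CaAKG replicate 9 Ier5 was at 0.50 (edgeR p = 0.0161) and Dusp1 at 0.19 (edgeR p = 0.0964). Fos, another AP-1 subunit, had 204 CPM in CaAKG replicate 9 and a median of 18.8 CPM in CaAKG libraries, against 16.9 CPM in controls. Leaving out CaAKG replicate 9 gave an edgeR p of 0.855. Egr1 lay the other way, with a median of 10.8 CPM in CaAKG libraries, against 18.6 CPM in controls. The median of the list in each library ran from -0.35 to 1.00 around the control mean in CaAKG libraries, against -0.42 to 0.38 in control libraries, and 3 of the 9 CaAKG libraries lay above all controls. Leaving out 1 library at a time put the list's median between 0.25, without CaAKG replicate 9, and 0.42.

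Clock genes had a median of 0.23 with 14 of 20 above 0, and 2 were higher and 2 lower at an unadjusted p under 0.05, against 50.4% of all genes above 0, 1.85% higher and 0.971% lower at that p. Nr1d1, the repressor of the Bmal1 gene, ran from 34.8 to 106 CPM in CaAKG libraries (median 85.3), against 62 to 168 CPM in control libraries (median 106). All 9 CaAKG libraries lay below the control median and 3 of them below all controls. On the log2 scale Nr1d1 differed by -0.60 ± 0.21 (SE, edgeR p = 0.00669). Clock, which pairs with Bmal1, was at -0.41 ± 0.20 (SE, edgeR p = 0.0457), and over 22 libraries limma-voom with quality weights called it lower (adjusted p = 0.0196). Arntl, the Bmal1 gene, ran from 3.08 to 36.9 CPM in CaAKG libraries (median 7.36), against 9.2 to 31.2 CPM in control libraries (median 20.3), with 6 of the 9 CaAKG libraries below all controls, and was at -0.64 ± 0.41 (SE, edgeR p = 0.128). Tef and Usp2, which follow the clock, were at 0.28 ± 0.14 (SE, edgeR p = 0.0448) and 0.37 ± 0.18 (SE, edgeR p = 0.0484). The labels and design text do not state the time of day of tissue collection, and its part in these values was not tested. Of 16 glucocorticoid targets and metallothioneins 14 lay above 0, with a median of 0.37, and 4 were higher and 1 lower at an unadjusted p under 0.05, against 1.85% and 0.971% of all genes. The 4 were Cebpd, Mt1, Mt2 and Fkbp5, which the atrophy and FOXO list also holds. The lower was the receptor itself, Nr3c1, which ran from 65.6 to 100.1 CPM in CaAKG libraries (median 83.4), against 75.3 to 122 CPM in control libraries (median 99.6), a log2 fold change of -0.28 ± 0.11 (SE, edgeR p = 0.0114).

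**Figure D5:**
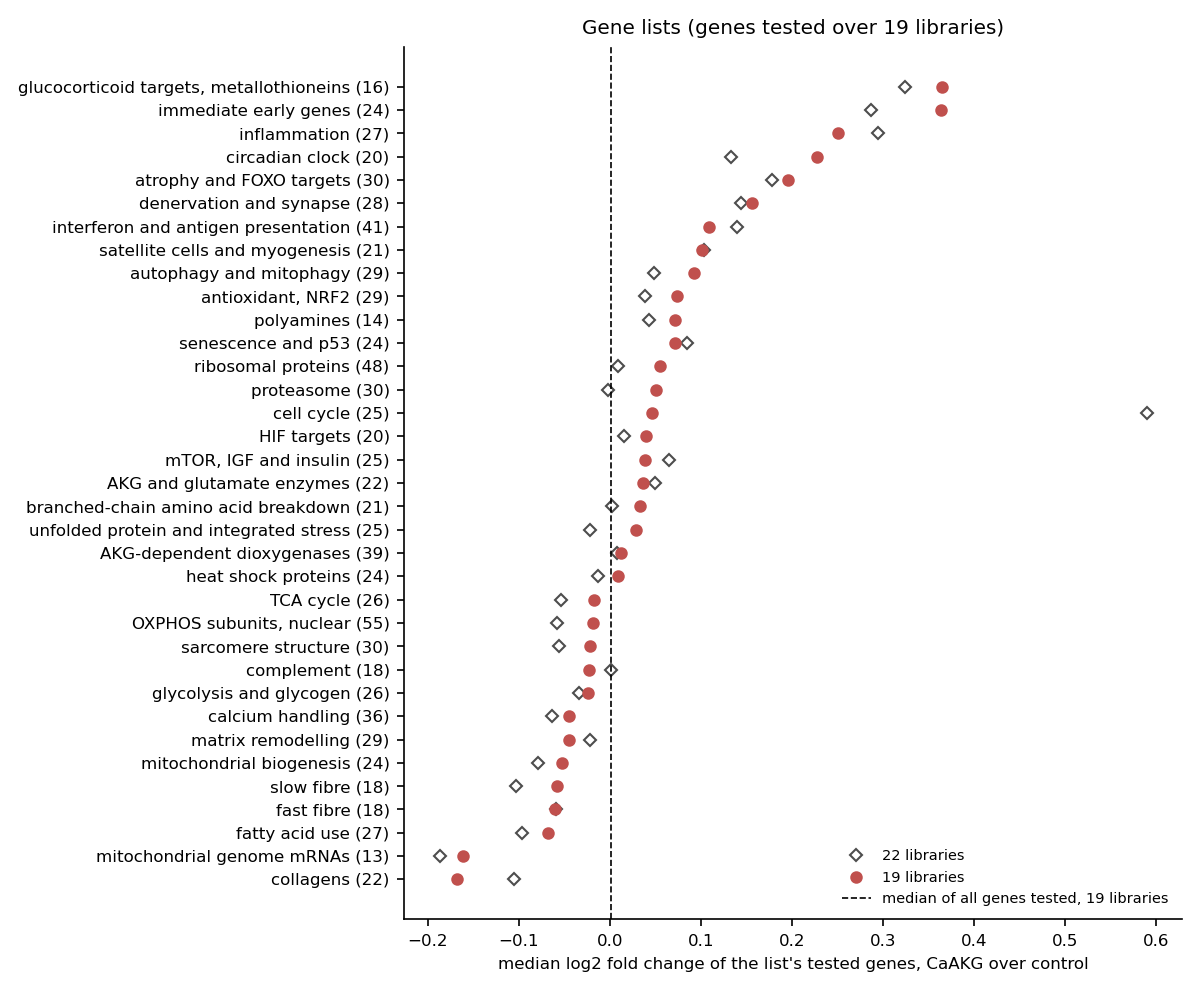
Median log2 fold change, CaAKG over control, of the tested genes of each of 35 lists (number of genes in brackets), over 19 libraries (filled circles) and 22 libraries (open diamonds), with a dashed line at the median of all genes tested. Immediate early genes (0.36) and glucocorticoid targets with metallothioneins (0.37) lie farthest to the right over 19 libraries, and the cell cycle list lies at 0.59 over 22 libraries and 0.05 over 19.

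Markers of senescence and inflammation were compared, since the design text calls the compounds given to these mice geroprotective. Cdkn2a, which encodes p16, was low and ran from 0 to 0.406 CPM in CaAKG libraries (median 0.11), against 0 to 0.518 CPM in control libraries (median 0.16). Cdkn1a, which encodes p21, ran from 21.8 to 133 CPM in CaAKG libraries (median 39.3), against 15.1 to 70.7 CPM in control libraries (median 35.3), a log2 fold change of 0.37 ± 0.31 (SE, edgeR p = 0.233). Without CaAKG replicate 1 that value was 0.05. Gdf15, a stress hormone, ran from 0.117 to 1.06 CPM in CaAKG libraries (median 0.366), against 0.104 to 0.985 CPM in control libraries (median 0.473). The list of 24 senescence and p53 genes had a median of 0.07, with 15 above 0. The senescence median lay between 0.02 (without CaAKG replicate 1) and 0.12 (without control replicate 1) when single libraries were left out. Interferon and antigen presentation genes had a median of 0.11 (31 of 41 above 0), but CaAKG libraries ran from -0.32 to 0.55 and control libraries from -0.46 to 0.55 around the control mean. The interferon median lay between 0.01 (without CaAKG replicate 1) and 0.19 (without control replicate 7) when single libraries were left out. Among inflammation genes, Sele and Icam1, adhesion molecules of activated endothelium, were at 2.10 ± 0.78 (SE, edgeR p = 0.00939) and 0.54 ± 0.21 (SE, edgeR p = 0.0123), and Nfkb2 at 0.36 ± 0.14 (SE, edgeR p = 0.0124). Icam1 was at 0.33 without CaAKG replicate 5 (edgeR p = 0.106), and Nfkb2 at 0.24 without CaAKG replicate 9 (edgeR p = 0.0899). Sele was low and ran from 0 to 1.74 CPM in CaAKG libraries (median 0.361), against 0 to 0.366 CPM in control libraries (median 0.0769). The inflammation list held 3 calls over 22 libraries, S100a8, S100a9 and Lcn2, and 0 over 19. Its median over 19 libraries was 0.25 (21 of 27 above 0) and 0.14 without CaAKG replicate 5. Neutrophil markers still lay above 0 in the 19 libraries for 12 of 12 genes tested, with a median of 1.66, or 0.89 without CaAKG replicate 9, and 0 at an unadjusted p under 0.05. Their sum was 25.0 CPM in CaAKG replicate 9 and 20.7 CPM in CaAKG replicate 5, against 0.946 to 5.91 CPM in controls, and the other 7 CaAKG libraries lay within that control range. The median over libraries of the list's library median was -0.12 in CaAKG libraries, against -0.03 in controls, and the part of neutrophil transcripts in the inflammation values was not tested.

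Genes that differed with age were set beside the CaAKG comparison, with which they share no library. In batch 1 males 1232 genes were higher (6.84% of genes tested) and 1725 lower (9.57%) at 28 than at 6 months, in the fit that holds the 19 libraries. The 1232 higher genes had a median CaAKG log2 fold change of 0.00, and 48.9% of them lay below 0, against 49.5% of all genes. The 1725 lower genes had a median of 0.04, and 64.8% lay above 0, against 50.4% of all genes. Over 22 libraries the medians were 0.02 for the higher and 0.00 for the lower genes, and 49.2% of the lower genes lay above 0, against 53.5% of all genes. These values are a description with no test.

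Collagens lay mostly below 0, and the groups overlapped. Of 22 collagens 5 lay above 0, with a median of -0.17, and 0 were at an unadjusted p under 0.05. The collagen median lay between -0.27 (without CaAKG replicate 11) and -0.09 (without control replicate 6) when single libraries were left out. CaAKG libraries ran from -0.97 to 0.27 around the control mean, against -0.50 to 0.67 in control libraries. The highest collagen values, 0.67 and 0.57, were those of control replicates 5 and 6. Their tendon markers summed to 792 and 595 CPM, against 421 CPM or less in other controls and 397 CPM or less in the 9 CaAKG libraries. Tendon markers had a median of -0.34, with 2 of 15 above 0. No fit left out both controls, and the part of tendon in the collagen values was not tested. Col1a1 ran from 10.4 to 68.8 CPM in CaAKG libraries (median 37.9), against 20.0 to 93.6 CPM in control libraries (median 34.9), and Col6a1, of the collagen around fibres, was at -0.36 ± 0.20 (SE, edgeR p = 0.0724). Fbn1, the fibrillin of microfibrils, ran from 14.8 to 48.3 CPM in CaAKG libraries (median 23.3), against 23.4 to 53 CPM in control libraries (median 35.4), a log2 fold change of -0.47 ± 0.21 (SE, edgeR p = 0.025). Adamts1, a protease of proteoglycans, ran from 32.3 to 170.0 CPM in CaAKG libraries (median 65.6), against 32.2 to 104 CPM in control libraries (median 60.4), a log2 fold change of 0.55 ± 0.24 (SE, edgeR p = 0.0229). Endothelial markers had a median of 0.09 (12 of 17 above 0), with Aqp1, a water channel of capillaries and red cells, at 0.40 ± 0.14 (SE, edgeR p = 0.00625). The endothelial median lay between 0.01 (without CaAKG replicate 12) and 0.14 (without CaAKG replicate 2) when single libraries were left out. Aqp1 ran from 196 to 369 CPM in CaAKG libraries (median 291), against 175 to 274 CPM in control libraries (median 216), and erythroid markers ran from 53.4 to 854 CPM in the same CaAKG libraries, against 94.7 to 744 CPM in control libraries. The part of red cells in the Aqp1 value was not tested. Macrophage markers had a median of -0.04 and fibro-adipogenic markers a median of -0.01, with 0 members at an unadjusted p under 0.05 in either list. The macrophage median lay between -0.10 (without CaAKG replicate 3) and 0.04 (without control replicate 7) when single libraries were left out. The fibro-adipogenic median lay between -0.11 (without CaAKG replicate 1) and 0.06 (without CaAKG replicate 5) when single libraries were left out.

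The width of the intervals differed with the level of a gene. For the 6357 genes of 10 to 100 CPM the median SE of the log2 fold change over 19 libraries was 0.106, and for 93.6% of them the 95% interval lay within 1.5-fold in either direction. For the 5175 genes of 1 to 10 CPM the median SE was 0.214, with 53.5% of intervals within 1.5-fold and 89.2% within 2-fold. Below 1 CPM 12% of the 5261 genes had an interval within 2-fold.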

How the data were processed

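Soleus RNA was sequenced from 78 libraries, of which 22 are compared here. Per the submitters' processing notes, reads passed FastQC and were processed with STAR 2.7.11b and RSEM 1.3.3 on mm10. Neither the annotation release nor the strand setting is stated there. The authors deposited a table of RSEM expected counts for 36904 gene IDs, in which 8.99% of values were not whole (tolerance 1e-06), and these were rounded. A further 55 columns, which match no sample label here, were not used. Symbols and positions came from GENCODE M21 and were found for 35338 IDs, while the 1566 others held 0.881% of counts.

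Genes were kept by filterByExpr (minimum count 10, total 15), scaled by TMM and tested with edgeR 4.0.16 (R 4.3.3) in 1 quasi-likelihood fit over all 11 groups and 77 replicates, since 2 libraries of 1 mouse were summed, with Benjamini-Hochberg adjustment at 0.05. CPM values of genes are TMM-scaled, while marker sums and library measures use library totals. Library medians of lists used log2(CPM + 0.5). The members and lists were chosen with earlier results of these data known. Genes named were those of lowest p by a rule over each fit and list, and further list members of known role were added after their values were seen. Alternatives used DESeq2 1.42.0, limma 3.58.1 (voom), other scaling and filters, length and GC offsets, a fold threshold of 1.2 and left-out libraries. Fits were tested on simulated data. Among 231 pairs of the 22 libraries the lowest chi-square per gene was 16, so no library was a copy of another. The labels number replicates but do not say in words that each is a separate mouse, so p-values rest on the spread between libraries. For edgeR's main fits that spread was estimated over the libraries of all 11 groups, and not over the compared libraries alone.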

Additional observations from a re-analysis of the deposited data

Results flagged for a closer look

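Among the 10 control libraries, 17 of 154 values tested had a highest or lowest library farther from the rest than Dixon's 95% critical value, where chance flags about 1 in 20 for values that vary freely. That rate does not hold for near-zero counts: Elane and Ctsg had 1 count in 1 control and 0 in the others, which passes by construction. Several of the others were also low counts of the marrow genes. Control replicate 8 was highest for Elane (0.0275 CPM), Ltf (0.413 CPM), Ctse (0.110 CPM) and Ngp (0.496 CPM), and its erythroid markers were the highest of the controls at 744 CPM. Ctsg was highest in control replicate 10 (0.0322 CPM), Lcn2 in control replicate 5 (1.79 CPM) and Epb42 in control replicate 7 (0.113 CPM).

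Control replicate 1 was lowest for Ogdh (786 CPM), Myh7 (6279 CPM) and Hspa2 (12.8 CPM) and highest for Myog (22.8 CPM), and had the shortest mean transcript length, at 1659 bases. Schwann cell markers were highest among the controls in the same library, at 808 CPM, and their part in these values was not tested. Control replicate 7 was highest for Zcchc7 (22.4 CPM) and Ifit1 (9.36 CPM), control replicate 8 for Fst (40.4 CPM) and control replicate 10 for Ogdhl (13.4 CPM). Control replicate 6 had the highest total, at 70.5 M counts (M stands for 1e+06).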

How the results depend on the processing

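Over 22 libraries the edgeR count of 12 calls became 29 with DESeq2 and 24 without a filter (14 higher and 10 lower). It was 0 in a fit of the compared groups alone, whose filter kept only S100a8, S100a9 and Lcn2 of the named calls. It was also 0 without CaAKG replicates 6 and 7, without replicates 6, 7 and 8, and without all 3 in the fit of the compared groups alone. Leaving out 1 library at a time gave 0 to 140 calls, the 140 without control replicate 4, and 11 of the 22 left-out libraries gave 0. Over 19 libraries DESeq2 gave 3 calls and every other alternative run gave 0, with 0 to 0 when 1 library was left out. The calls in the inflammation (3), glucocorticoid (1), neutrophil (8) and erythroid (2) lists became 0 without CaAKG replicates 6, 7 and 8. Elane, Ctsg and Epb42 of these lists did not pass the filter of that fit. The cause of these shifts was not tested. The fits without CaAKG replicates 6 and 7, and those joining a smaller fit with left-out libraries, were chosen after seeing the data.

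Replicate numbers did not pair the libraries: 3 of 10 same-numbered pairs correlated over 0.1 (range -0.0915 to 0.23) and 2 of 10 libraries correlated best with their own number. The replicate block left 0 calls over 22 libraries and 0 over 19, with 1351 and 974 genes at an unadjusted p under 0.05. The fit of the compared groups alone, without the block, also left 0 calls over either set. The block takes the difference within replicate numbers, so libraries whose number occurs in only 1 group added nothing to it. Under the block the log2 difference of Fos was -0.0101, against 1.00 in the main fit. The part of the unpaired libraries in this shift was not tested. Of the values of the 11 genes past the threshold over 22 libraries, 71 kept their call and 53 no longer passed. Fits whose filter left a gene out gave no value for it and are not counted. Over 19 libraries the main fit called no gene, so no call could be lost. A value there counted as changed only if it gained a call, or turned direction with an unadjusted edgeR p under 0.05 in the main fit. By that rule 1871 of 1872 values were unchanged, and Fos was the exception. The rule does not count an unadjusted p that rose past 0.05. Among genes named at an unadjusted p under 0.05, Adamts1, Bcat2, Clock, Ddit4, Fbn1, Irs2, Psmd4, Sqstm1, Tef, Tfb1m and Usp2 reached an edgeR p of 0.0636 (Fbn1) to 0.165 (Irs2) without a single library, with changes in size under 1.5 times. Estimates for genes below 1 CPM had wide intervals.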
